A study of Mus musculus with 4 samples.

Results

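Iron is taken up, stored, exported and sensed through a small set of genes, and 10 of them were followed here across bone marrow cells of 6 mice. They were the transferrin receptors Tfrc and Tfr2, the divalent metal transporter Slc11a2, the mitochondrial importer Slc25a37, the ferritin subunits Fth1 and Ftl1, the exporter Slc40a1, the heme-degrading enzyme Hmox1 and the iron-sensing RNA-binding proteins Ireb2 and Aco1. They were chosen by name, as 10 of the 32285 genes in the deposited matrices, and all 10 were measured. The mice were female, carried the Tppp3CreER and LSLTdTomato alleles, and were given as 6 weeks old, although the design text also speaks of isolation after 2 weeks. Tamoxifen activates the Cre, which then marks cells that express Tppp3. Treatments were tamoxifen on postnatal days 0 and 3 (n = 2 mice), tamoxifen with rapamycin on the same days (n = 2), and rapamycin alone on postnatal day 30 (n = 2), called late rapamycin. Rapamycin inhibits the growth kinase complex mTORC1. The late rapamycin mice received no tamoxifen, and no untreated mice were analysed here. One mouse of each treatment was processed on each of 2 days, so replicate 1 is day 1 and replicate 2 is day 2. The cells came from marrow sorted as Lin-Sca+Kit+ and Lin-Sca-Kit+ and from whole marrow, and the shares of these sources per mouse are not given, so numbers of cells are not compared.

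Mice were assigned by the deposited hashtag table, whose "Ctrl" mice were read as late rapamycin. The sample labels number the mice differently. Were those numbers the hashtag numbers, the mice with tamoxifen alone and with both agents would swap. Tamoxifen with rapamycin minus tamoxifen would change sign. The other treatment comparisons would trade places and, as written here, change sign too. Comparisons between cell gates do not rest on this assignment.

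Most cells take up iron bound to transferrin through the transferrin receptor, and red cell precursors do so at a high rate because they build hemoglobin. Iron freed in the endosome leaves it through Slc11a2, enters mitochondria through Slc25a37 for heme and iron-sulphur clusters, or is stored in ferritin shells of Fth1 and Ftl1. Surplus iron leaves the cell through ferroportin, the product of Slc40a1. Ireb2 and Aco1 encode the iron regulatory proteins, which bind a hairpin called the iron-responsive element when iron is low. In the 5′ untranslated region (UTR) the bound hairpin blocks translation, and in the 3′ UTR it protects the messenger from decay. RNA counts therefore do not show protein levels of ferritin or ferroportin.

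The element was searched for in the UTRs of coding transcripts of the GENCODE M21 annotation (genome build GRCm38). In that build the genes lie at separate places: Tfrc at chr16:32608920-32632794, Tfr2 at chr5:137569840-137587481, Slc11a2 at chr15:100387898-100425072, Slc25a37 at chr14:69241848-69285112, Fth1 at chr19:9980598-9985098, Ftl1 at chr7:45457944-45459884, Slc40a1 at chr1:45908068-45926523, Hmox1 at chr8:75093621-75100589, Ireb2 at chr9:54863789-54912530 and Aco1 at chr4:40143081-40198338. The search asked on the transcript strand for C, any 5 bases, CAGTGN and any 5 bases, with all 5 bases on each side of the loop able to pair (G with T included). Such a hairpin was found in the 5′ UTR of Fth1, Ftl1 and Slc40a1 and at 4 places in the 3′ UTR of Tfrc. They are shown because they tie 4 of the 10 genes to the products of 2 others. Capitals mark the 6 loop bases.
Fth1, 5′ UTR, chr19:9982732-9982760, plus strand: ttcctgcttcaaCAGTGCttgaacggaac
Ftl1, 5′ UTR, chr7:45459779-45459807, minus strand: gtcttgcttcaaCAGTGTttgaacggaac
Slc40a1, 5′ UTR, chr1:45925465-45925493, minus strand: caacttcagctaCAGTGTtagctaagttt
Tfrc, 3′ UTR, chr16:32631219-32631247, plus strand: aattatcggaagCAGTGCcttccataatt
Tfrc, 3′ UTR, chr16:32631598-32631626, plus strand: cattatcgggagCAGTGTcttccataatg
Tfrc, 3′ UTR, chr16:32631663-32631691, plus strand: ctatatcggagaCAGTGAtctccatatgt
Tfrc, 3′ UTR, chr16:32631710-32631738, plus strand: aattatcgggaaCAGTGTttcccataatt
Over all genes of that annotation, 0.136% of 20520 with a 5′ UTR and 0.609% of 20867 with a 3′ UTR held such a hairpin. The letters without the pairing were in 10.7% and 35.6% of them. In the 3′ UTR of 1 transcript of Slc11a2 the site had 4 of 5 pairs.
Slc11a2, 3′ UTR, chr15:100395153-100395181, minus strand: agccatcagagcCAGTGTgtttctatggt
Reads in these libraries come from the 3′ end of messengers. The deposited counts are per gene, so they do not separate transcripts with and without these hairpins.

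Cells were placed in gates by the number of marker genes with at least 1 unique molecular identifier (UMI), and no iron gene served as a marker. The stem gate (3276 cells) needed 4 of 12 markers such as Procr and Hlf, and the erythroid gate (3374 cells) 5 of 13 such as Klf1 and Car1. The primary granule gate (2452 cells, 5 of 8 markers such as Elane and Mpo) holds cells with neutrophil progenitor genes. The secondary granule gate (4555 cells, 6 of 11 markers such as Ngp and Camp) holds cells with later neutrophil genes. The monocyte gate (1393 cells) needed 4 of 10 markers such as Csf1r. The stem gate is a range and not a type, since 2208 of its cells sat at the minimum and 4086 cells sat 1 marker below it. Only 17 cells met the macrophage gate, so macrophages were not analysed. Of 34408 kept cells, 1798 met several gates and 13394 met none, and neither were used. Median UMIs per cell were 3394.5 in the stem gate, 11102.5 in the erythroid, 9062.5 in the primary granule, 2290 in the secondary granule and 3190 in the monocyte gate. In each gate the markers of that gate were the highest of all gates. Stem gate cells also held erythroid markers at 343.9 to 788.6 CPM (the usual depth-scaled count) over the mice, against 7841 to 9263 in the erythroid gate.

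Counts were summed per mouse and gate, giving 720781 to 9463654 UMIs per sum. Levels between gates are CPM after TMM scaling, which corrects for a few genes that take up much of a library. Each gate was compared with the stem gate within mice by edgeR's quasi-likelihood test. A gene was called at a Benjamini-Hochberg adjusted p under 0.05 over all 11627 genes tested. All 10 iron genes passed the filter on low counts. Most genes differ between such cells, so the share of all genes called is given beside each count.

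In the erythroid gate 8 of the 10 genes rose against the stem gate and Hmox1 fell, while 38.7% of all genes rose and 43.2% fell. In the primary granule gate 4 rose and 2 fell (35.9% and 36.4% of all genes). The secondary granule gate had 6 that rose and 4 that fell (38.1% and 45.4%). In the monocyte gate 6 rose and 1 fell (34.7% and 29.1%). The median log2 difference of the 10 genes was 1.51 in the erythroid gate against -0.08 for all genes, 0.31 against -0.02 in the primary granule gate, 0.99 against -0.18 in the secondary granule gate and 0.40 against 0.04 in the monocyte gate.

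The scaling matters for these counts. TMM factors were 1.35 to 1.38 in the stem gate and 0.471 to 0.646 in the secondary granule gate, where a few granule genes take up much of the RNA. With plain UMI totals the median of all genes moved by -0.34 (log2) in the erythroid, -0.33 in the primary granule, -0.31 in the monocyte and -1.24 in the secondary granule comparison. Among all genes called, the share that was higher went from 47.3% to 34.9%, from 49.7% to 31.5%, from 54.4% to 33.7% and from 45.6% to 18.3% in that order. The iron genes then counted 7 higher and 2 lower in the erythroid gate, 4 and 4 in the primary granule gate, 3 and 2 in the monocyte gate and 4 and 5 in the secondary granule gate. A difference in the secondary granule gate is therefore best read beside the general shift.

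**Figure D1:**
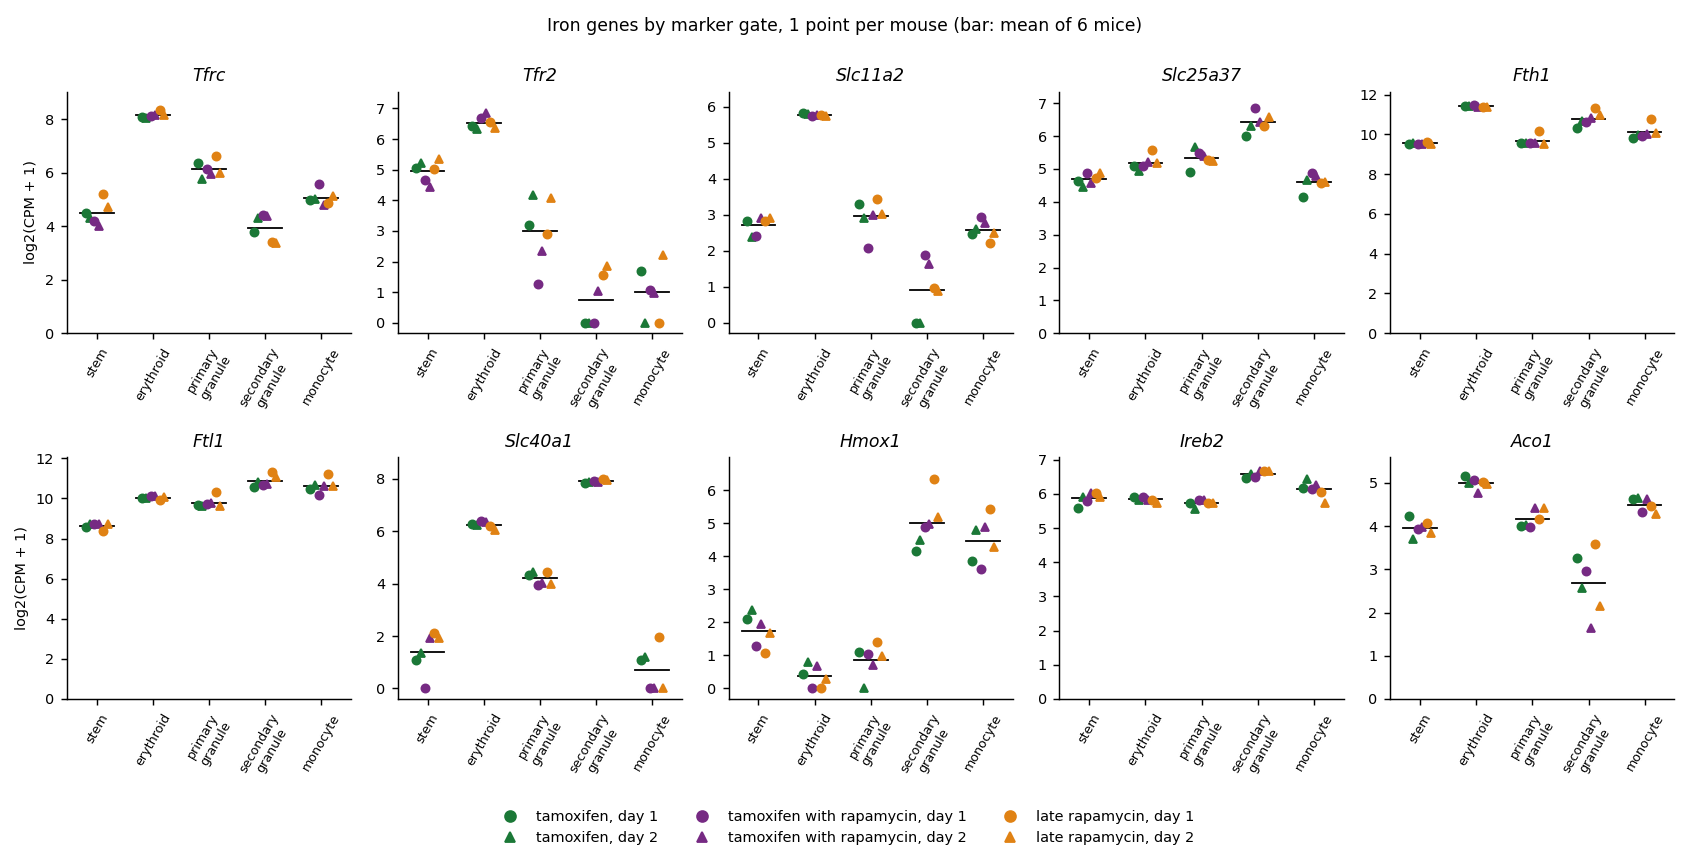
Levels of the 10 iron genes as log2(CPM + 1) after TMM scaling (vertical axis) in the 5 gates (horizontal axis), 1 point per mouse, coloured by treatment and shaped by day, with a bar at the mean of the 6 log2 values. Tfrc and Slc11a2 stand highest in the erythroid gate, Slc40a1 in the secondary granule gate, and Hmox1 in the secondary granule and monocyte gates.

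Tfrc, the main receptor for transferrin-bound iron, was highest in the erythroid gate. Its level there was 282 ± 21.9 CPM (SD, n = 6), from 262 to 324 over the mice. It was 70.1 ± 15.9 in the primary granule, 33.0 ± 7.42 in the monocyte, 22.2 ± 7.53 in the stem and 15.2 ± 5.14 in the secondary granule gate. The erythroid and primary granule ranges overlapped with no other, whereas those of the stem gate overlapped with both the monocyte and the secondary granule gate. Against the stem gate the log2 difference was 3.68 ± 0.14 (standard error, SE) in the erythroid gate (adjusted p = 1.73e-21) and 1.66 ± 0.15 in the primary granule gate (adjusted p = 1.15e-11), higher in 6 of 6 mice in both. The call in the monocyte gate was smaller (0.55 ± 0.19, adjusted p = 0.0121, higher in 5 of 6 mice) and was lost with plain UMI totals, without the scaling described above (0.24, adjusted p = 0.301). In the secondary granule gate it was -0.66 ± 0.23 (adjusted p = 0.00821), with 3 of 6 mice lower.

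Tfr2, a second transferrin receptor that is also a partner of the erythropoietin receptor, was highest in the erythroid and next in the stem gate. Its level was 92.8 ± 13.4 CPM (SD, n = 6) in the erythroid and 30.95 ± 7.39 in the stem gate, and these ranges did not overlap. It was 8.80 ± 6.29 in the primary granule gate, 1.34 ± 1.42 in the monocyte and 0.927 ± 1.12 in the secondary granule gate. The last values rest on 8 UMIs each over all 6 mice. The log2 difference from the stem gate was 1.61 ± 0.20 (SE) in the erythroid gate (adjusted p = 6.70e-09) and -1.90 ± 0.26 in the primary granule gate (adjusted p = 1.12e-07), each with the same direction in 6 of 6 mice. Its differences in the secondary granule (-4.64 ± 0.53, adjusted p = 1.65e-09) and monocyte gates (-4.50 ± 0.54, adjusted p = 9.58e-09) were also called. Tfr2 was thus higher in the stem gate than in each of the primary granule, secondary granule and monocyte gates, in 6 of 6 mice.

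Slc11a2, which moves iron out of the endosome, rose in the erythroid gate and was flat in most others. Its level was 54.0 ± 0.974 CPM (SD, n = 6) in the erythroid gate, with all 6 mice between 53 and 55.6. In the stem gate it was 5.61 ± 1.07, in the primary granule gate 7.08 ± 2.31 and in the monocyte gate 5.07 ± 1.10, and these ranges overlapped. The erythroid difference was 3.24 ± 0.15 log2 units (SE, adjusted p = 5.64e-19). Neither the primary granule (0.37 ± 0.20, adjusted p = 0.103) nor the monocyte difference (-0.21 ± 0.30, adjusted p = 0.557) passed. The secondary granule level was 1.11 ± 1.11 CPM from 7 UMIs in all, and the gene was called lower (-2.42 ± 0.43, adjusted p = 5.89e-06).

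Slc25a37, mitoferrin 1, brings iron into mitochondria and is known from red cell precursors. Among whole gates its highest level after TMM scaling was in the secondary granule gate, at 85.9 ± 17.9 CPM (SD, n = 6). The primary granule (39.6 ± 7.03) and erythroid gates (35.7 ± 5.90) overlapped. The ranges of both lay above those of the stem (24.9 ± 3.09) and monocyte gates (23.5 ± 3.89). Against the stem gate it rose by 1.78 ± 0.13 log2 units (SE) in the secondary granule gate, 0.66 ± 0.12 in the primary granule gate and 0.53 ± 0.12 in the erythroid gate (adjusted p = 2.25e-14, 1.49e-05 and 0.000134), in 6 of 6 mice each. With plain UMI totals the secondary granule difference was 0.54 and stayed called, while the erythroid one was 0.19 and was no longer called (adjusted p = 0.177). Its level in the late range of the erythroid gate, described below, was 79.5 ± 14.8 CPM without TMM scaling. Per cell it was 0.121 ± 0.0226 UMIs (SD, n = 6 mice) in the secondary granule gate. In the erythroid gate, whose cells hold more UMIs, it was 0.429 ± 0.0928.

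The ferritin genes did not move in parallel. Fth1, the heavy subunit that oxidises iron, was highest in the erythroid gate at 2719 ± 79.8 CPM (SD, n = 6). Its other levels were 1804 ± 439 in the secondary granule, 1120 ± 314 in the monocyte, 815 ± 160 in the primary granule and 743 ± 19.1 in the stem gate. Ftl1, the light subunit that helps to form the iron core, had 1898 ± 392 CPM in the secondary granule gate. Its other levels were 1620 ± 416 in the monocyte, 1054 ± 53.9 in the erythroid, 893 ± 181 in the primary granule and 398.5 ± 37.5 in the stem gate. The secondary granule and monocyte ranges overlapped, and their order turned with plain totals (1.00 and 1.68 log2 units above the stem gate). Ftl1 was thus higher than in the stem gate everywhere, by 1.40 ± 0.12 (erythroid), 1.14 ± 0.12 (primary granule), 2.22 ± 0.13 (secondary granule) and 1.99 ± 0.12 log2 units (monocyte), with 6 of 6 mice each and under both scalings. Fth1 rose by 1.88 ± 0.11 in the erythroid gate (adjusted p = 1.04e-16). In the primary granule gate its difference was 0.11 ± 0.11 (adjusted p = 0.354), and it was called lower there with plain totals (-0.22, adjusted p = 0.0220). In the monocyte gate it rose by 0.56 ± 0.11 (adjusted p = 3.55e-05), with 6 of 6 mice higher. Among secondary granule cells Fth1 rose by 1.25 ± 0.11 under TMM, 0.03 with plain totals and 0.14 in cells of at least 1000 genes and 2000 UMIs. A pseudogene, Ftl1-ps1, is among the features and can share reads with Ftl1, so Ftl1 counts are uncertain to that extent.

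The ratio of Fth1 to Ftl1 UMIs within the same cells needs no scaling between gates. It was 2.58 ± 0.118 (SD, n = 6) in the erythroid gate and 1.89 ± 0.253 in the stem gate. In the primary granule gate it was 0.913 ± 0.0283, in the secondary granule gate 0.946 ± 0.0750 and in the monocyte gate 0.694 ± 0.0819. The lowest value in the stem and erythroid gates was 1.72, and the highest in the primary granule, secondary granule and monocyte gates was 1.04. It is a ratio of counts at the 3′ end, not of protein subunits, and it was examined after the levels had been seen.

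Slc40a1, the iron exporter, had the widest differences of the 10 genes. Its level was 238.5 ± 9.97 CPM (SD, n = 6) in the secondary granule gate, 75.0 ± 6.11 in the erythroid gate and 17.6 ± 3.00 in the primary granule gate. It was 1.94 ± 1.27 in the stem gate (37 UMIs in all) and 0.884 ± 1.16 in the monocyte gate (6 UMIs in all). Ranges of the first 3 gates overlapped with none other. Log2 differences from the stem gate were 6.74 ± 0.18 (SE) in the secondary granule gate, 5.07 ± 0.19 in the erythroid gate and 2.98 ± 0.23 in the primary granule gate (adjusted p = 6.84e-26, 4.98e-22 and 3.82e-13), and with plain totals 5.53, 4.74 and 2.66. The monocyte difference did not pass (-1.12 ± 0.60, adjusted p = 0.101), but with plain totals it was called lower (-1.43, adjusted p = 0.0359). The share of Slc40a1 in the RNA was thus 3.18-fold higher in the secondary granule than in the erythroid gate after TMM scaling, and the gap was smaller with plain totals (5.53 against 4.74 log2 units above the stem gate). Per cell the order was the other way, with 0.339 ± 0.0613 UMIs (SD, n = 6 mice) in the secondary granule and 0.902 ± 0.168 in the erythroid gate, whose cells hold more UMIs. The summed level of 9 macrophage markers was 10.4 to 26.1 CPM in the secondary granule, 1.03 to 4.02 in the erythroid and 58.6 to 90.4 in the monocyte gate, and their part in the Slc40a1 levels was not tested.

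Hmox1, which opens the heme ring and frees its iron, was higher in the secondary granule and monocyte gates than in the others. Its level was 35.6 ± 22.9 CPM (SD, n = 6) in the secondary granule gate and 23.4 ± 11.5 in the monocyte gate. In the stem gate it was 2.51 ± 1.18, in the primary granule gate 0.914 ± 0.561 and in the erythroid gate 0.320 ± 0.311, where it rests on 15 UMIs in 3374 cells. The rises of 3.67 ± 0.32 and 3.06 ± 0.34 log2 units (SE) were called (adjusted p = 2.10e-12 and 1.75e-09), with 6 of 6 mice higher. It fell by 2.77 on the log2 scale in the erythroid gate (SE 0.50, adjusted p = 8.05e-06), lower in 6 of 6 mice, and by 1.52 in the primary granule gate (SE 0.48, adjusted p = 0.00572), lower in 5 of 6 mice. The spread of Hmox1 in the secondary granule gate comes from 1 mouse: late rapamycin replicate 1 had 80.4 CPM, and the others had 17.1 to 35.2. The part of the macrophage markers given above in the Hmox1 levels was not tested.

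The sensors differed from each other. Ireb2, iron regulatory protein 2, had 57.9 ± 6.34 CPM (SD, n = 6) in the stem, 56.3 ± 2.52 in the erythroid, 52.3 ± 3.72 in the primary granule, 69.9 ± 11.2 in the monocyte and 95.7 ± 5.82 in the secondary granule gate. Its difference was called in the secondary granule (0.73 ± 0.09 log2 units, SE, adjusted p = 8.95e-09) and monocyte gates (0.25 ± 0.10, adjusted p = 0.0237). With plain UMI totals those became -0.51 (called lower) and -0.06, so its direction there depends on the scaling. In the erythroid and primary granule gates its differences of -0.05 and -0.15 did not pass (adjusted p = 0.582 and 0.107), but with plain totals they were -0.39 and -0.49 and were called (adjusted p = 8.78e-05 and 1.05e-05). Aco1, iron regulatory protein 1 and a cytosolic aconitase, had 31.0 ± 2.72 CPM in the erythroid, 21.6 ± 2.46 in the monocyte, 17.1 ± 2.62 in the primary granule, 14.6 ± 2.03 in the stem and 6.14 ± 3.33 in the secondary granule gate. It rose by 1.10 ± 0.13 (SE) in the erythroid gate and 0.57 ± 0.18 in the monocyte gate, and was called lower in the secondary granule gate (-1.12 ± 0.23; adjusted p = 5.20e-09, 0.00598 and 4.28e-05). With plain totals the monocyte call was lost (0.26, adjusted p = 0.182). The ratio of Ireb2 to Aco1 UMIs, free of scaling, was 1.83 ± 0.145 (SD, n = 6) in the erythroid gate, 4.04 ± 0.777 in the stem gate, 3.10 ± 0.434 in the primary granule gate and 3.23 ± 0.322 in the monocyte gate. The erythroid range (1.72 to 2.11) lay below the other 3.

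**Figure D2:**
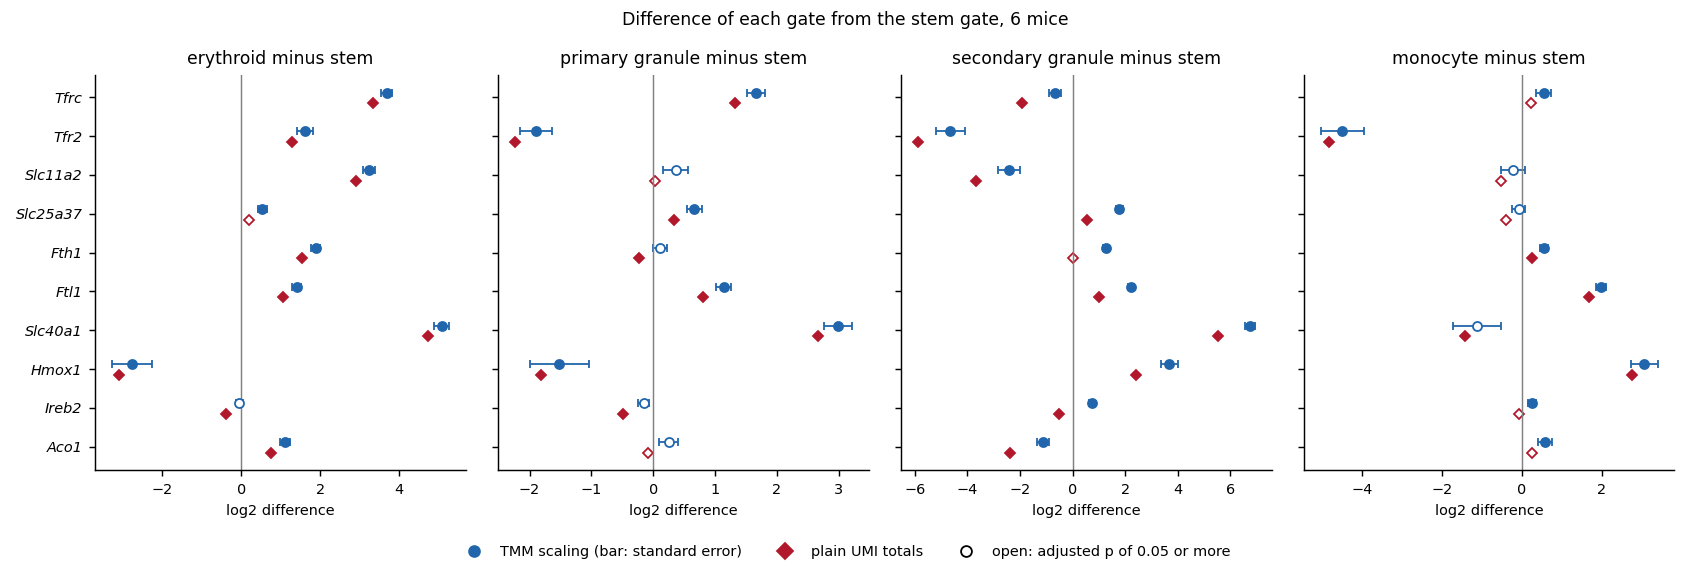
Log2 differences of each gate from the stem gate (horizontal axis) for the 10 iron genes, as blue circles with standard errors after TMM scaling and red diamonds with plain UMI totals. Open symbols did not pass an adjusted p of 0.05. The red diamonds lie left of the circles throughout, most in the secondary granule panel, where Ireb2 changes sign.

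Shares of cells with a UMI were compared after thinning each cell to 1000 UMIs, and no gate cell was shallower. Cells of the B lineage gate (3560 cells, median 1480.5 UMIs) served as the background for genes they should lack. Tfr2 was seen in 9.13% of erythroid and 4.18% of stem gate cells against 0.11% of B lineage cells (61.9%, 14.8% and 0.25% before thinning). Slc40a1 was seen in 13.8% of secondary granule and 6.70% of erythroid cells against 0.14% of B lineage cells (28.9%, 56.7% and 0.17% before thinning). Hmox1 was seen in 2.79% of secondary granule and 3.30% of monocyte gate cells against 0.06% (5.91%, 9.84% and 0.14% before thinning). Tfr2 in the secondary granule and monocyte gates (0.07% each) was at or below the B lineage share and is read as background.

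Among 49 other genes of iron handling, 36 passed the filter on low counts. In the erythroid gate 22 rose and 10 fell, in the primary granule gate 14 and 6, in the secondary granule gate 16 and 16, and in the monocyte gate 20 and 6. Of all genes, 38.7% rose and 43.2% fell in the erythroid, 35.9% and 36.4% in the primary granule, 38.1% and 45.4% in the secondary granule and 34.7% and 29.1% in the monocyte gate. The median log2 difference of the 36 was 0.74, 0.20, -0.06 and 0.46 in that order. With plain UMI totals the counts were 20 and 14, 10 and 15, 7 and 26, and 15 and 13, so the balance of higher and lower turned in the primary granule gate and moved far in the secondary granule gate. Counts by group are given after TMM scaling only. Of the genes of mitochondrial iron and iron-sulphur cluster assembly, 10 of 12 rose in the erythroid gate (38.7% of all genes) and 9 of 12 fell in the secondary granule gate (45.4% of all genes). Glrx5, a glutaredoxin of cluster assembly, had 429 ± 16.2 CPM (SD, n = 6) in the erythroid, 103 ± 24.6 in the primary granule and 41.3 ± 6.01 in the stem gate. Its log2 differences were 3.38 ± 0.12 (SE, adjusted p = 9.47e-23) and 1.32 ± 0.12 (adjusted p = 1.26e-11). Abcb10, a mitochondrial transporter known as a partner of Slc25a37, rose in the primary granule gate by 1.43 ± 0.13 (adjusted p = 3.19e-11). Its level was higher still in the erythroid gate, at 79.7 ± 6.36 CPM against 34.2 ± 3.21 in the primary granule and 13.2 ± 3.19 in the stem gate.

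Steap3, which reduces iron in the endosome, went with Tfrc and Slc11a2 in the erythroid gate, with 175 ± 12.3 CPM against 9.15 ± 1.73 in the stem gate (log2 difference 4.25 ± 0.14, adjusted p = 1.72e-23). Blvrb, biliverdin reductase B, reached 871 ± 59.2 CPM in the erythroid gate against 22.9 ± 2.83 in the stem gate (5.28 ± 0.11, adjusted p = 6.44e-28), while Zfp36, an RNA-decay factor that can act on Tfrc, fell by 4.46 on the log2 scale (adjusted p = 7.11e-20). In the secondary granule gate all 4 measured regulators rose (38.1% of all genes). They included Zfp36 (253 ± 25.3 CPM, log2 difference 3.74 ± 0.12, adjusted p = 3.34e-24), Fbxl5, which marks Ireb2 protein for degradation (587 ± 305 CPM, 3.68 ± 0.17, adjusted p = 3.85e-19), and Nfe2l2, the oxidative stress factor NRF2 (1.99 ± 0.10, adjusted p = 2.94e-18). Picalm, a clathrin assembly protein, rose there by 2.69 ± 0.14 (adjusted p = 4.57e-18). Further genes with the smallest adjusted p were Lrp1 in the monocyte gate (155 ± 89.2 CPM, 5.12 ± 0.23, adjusted p = 2.77e-19), with Flvcr1, a heme exporter (1.65 ± 0.15, adjusted p = 4.02e-11), and Zfp36 (1.69 ± 0.13, adjusted p = 9.13e-13) beside it. Flvcr1 was higher in the secondary granule gate (62.6 ± 13.6 CPM) than in the monocyte gate (37.2 ± 3.20). Pcbp1, an iron chaperone for ferritin, had 439 ± 22.3 CPM in the erythroid and 359 ± 75.4 in the primary granule gate. In the primary granule gate it rose by 1.17 ± 0.09 (adjusted p = 1.35e-13). Abcg2, a heme exporter and stem cell gene, was lower there (-1.40 ± 0.11, adjusted p = 1.21e-12) and in the monocyte gate (-2.38 ± 0.16, adjusted p = 1.47e-14).

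**Figure D3:**
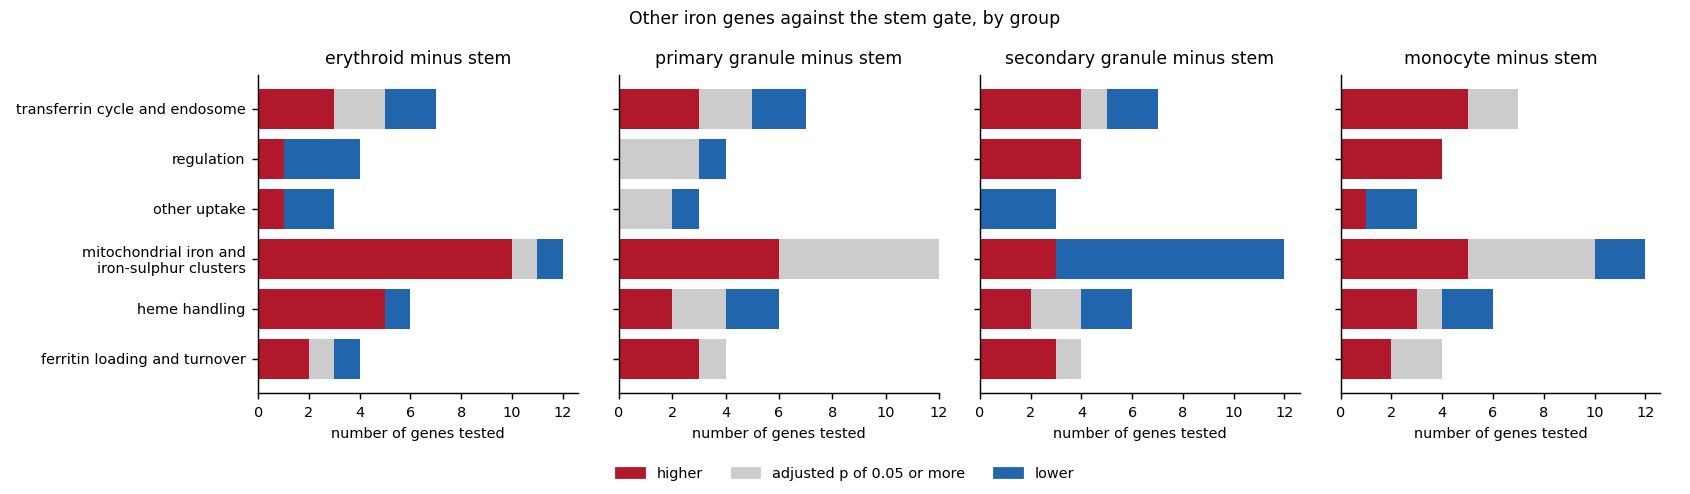
Numbers of other iron genes tested (horizontal axis) by group (vertical axis) that were higher, lower or not called against the stem gate, in 1 panel per gate. In the mitochondrial group 10 of 12 were higher in the erythroid gate and 9 of 12 lower in the secondary granule gate.

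Within the erythroid gate, cells were split by 7 late markers, among them globins and Slc4a1, into early (at most 1 marker with a UMI, 1356 cells), middle (1089) and late (at least 4, 929 cells). Globin took 0.00115%, 0.0129% and 0.455% of UMIs in these ranges and was left out of the totals. CPM values of the ranges are plain shares of the remaining UMIs without TMM scaling, unlike the gate levels above. Median UMIs per cell were 9780.5, 12452 and 11960. The ranges follow per-cell counts and are not types. Tfrc went from 212 ± 32.7 CPM (SD, n = 6) in the early to 297 ± 43.7 in the middle and 429 ± 47.9 in the late range. Fth1 went from 2079 ± 130 to 2878 ± 127 and 4022 ± 126 CPM. Ftl1 went from 862 ± 29.4 to 1161 ± 52.2 and 1429 ± 85.6 CPM. Slc25a37 differed mostly in the last step, with 20.5 ± 7.28, 24.5 ± 11.7 and 79.5 ± 14.8 CPM, while Slc11a2 had 52.9 ± 1.89, 60.1 ± 2.18 and 62.0 ± 4.51. Values over the mice in the early and late ranges did not overlap for Tfrc, Fth1, Ftl1, Slc25a37 or Slc11a2. For Slc11a2 they nearly met, with 55.45 as the highest early and 56.7 as the lowest late value. The share of all genes that separate in this way was not computed, so these genes are not read as an excess.

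Late minus early, in log2(CPM + 1) per mouse, was 1.95 ± 0.51 (SD) for Slc25a37, 1.02 ± 0.16 for Tfrc, 0.95 ± 0.08 for Fth1, 0.73 ± 0.07 for Ftl1 and 0.22 ± 0.13 for Slc11a2, positive in 6 of 6 mice each. By an exact two-sided sign-flip permutation test each had p = 0.0312, the smallest that 6 mice allow, and 0.0625 after Benjamini-Hochberg adjustment over the 10 genes, so none passed. Tfr2 was -0.09 ± 0.13 (2 of 6 mice higher, exact p = 0.125, adjusted 0.179) and Ireb2 -0.04 (2 of 6 higher, exact p = 0.562). Slc40a1 was 0.24 (5 of 6 higher, exact p = 0.0938) and Aco1 0.20 (4 of 6 higher, exact p = 0.188). Hmox1 was near 0 CPM in all ranges. The share of all genes that were higher in 6 of 6 mice was not computed either.

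**Figure D4:**
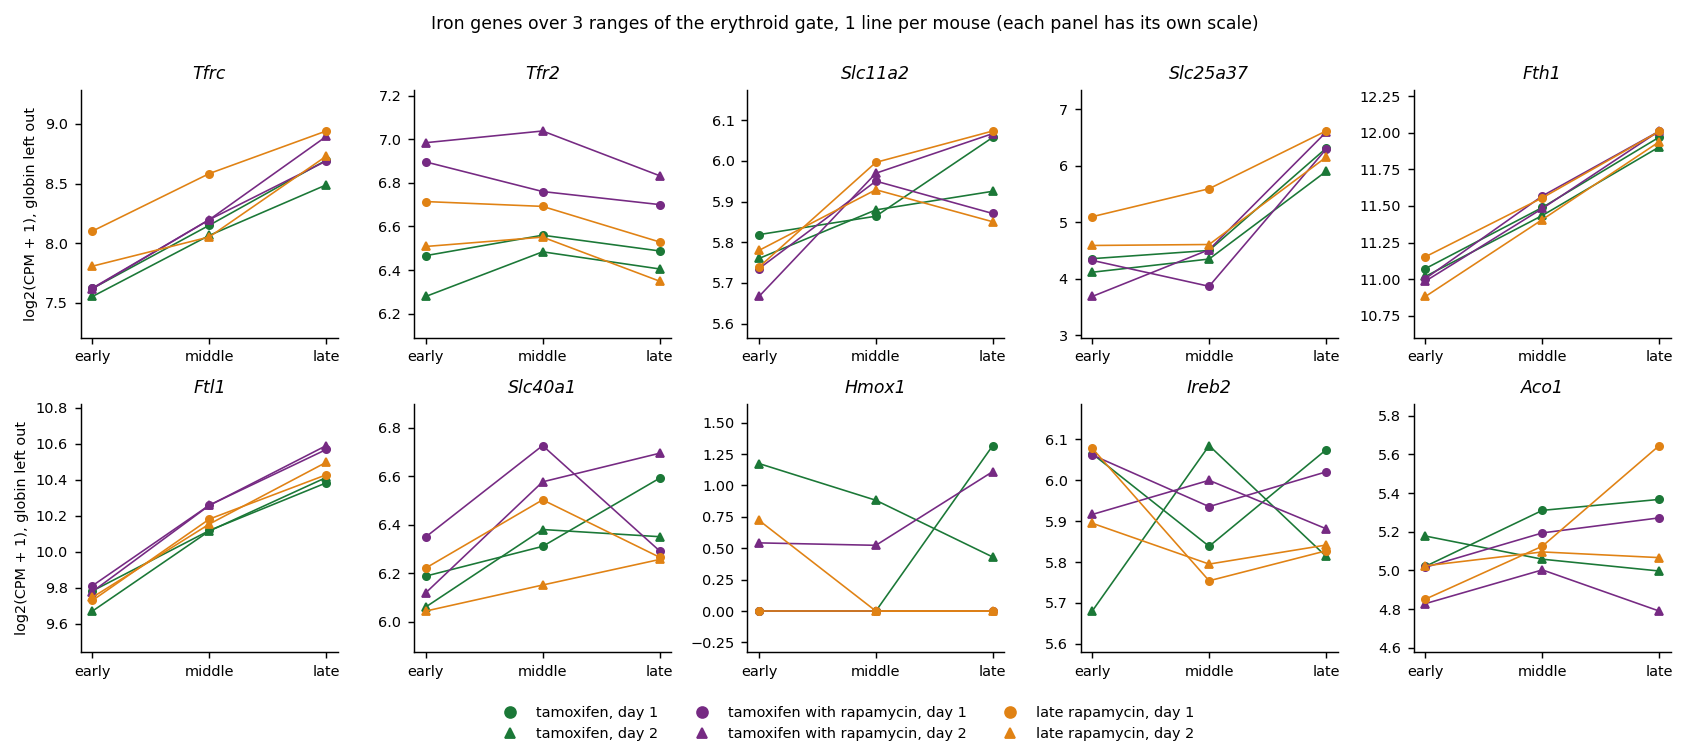
Levels of the 10 iron genes as log2(CPM + 1), globin left out and without TMM scaling (vertical axis, own scale per panel), in the early, middle and late ranges of the erythroid gate, 1 line per mouse. Tfrc, Fth1, Ftl1, Slc25a37 and Slc11a2 are higher in the late than in the early range in 6 of 6 mice, and Tfr2 and Ireb2 in 2 of 6.

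Treatments were compared within each gate with day as a block, 2 mice against 2, with p-values adjusted over all genes tested in the gate. CPM values here are scaled within a gate and so differ from those above. Of 120 member tests in 15 comparisons, 1 was called and 18 had an unadjusted p under 0.05. The share of all genes under that unadjusted limit is not set beside the 18, so they are not read as an excess. In the stem gate 8 of the 10 genes could be tested, and Tfrc alone was called, in tamoxifen with rapamycin minus late rapamycin, where 1.57% of 11155 genes were called. The other stem gate comparisons called none of the 8: 0.143% of all genes were called for tamoxifen with rapamycin minus tamoxifen and 0.932% for late rapamycin minus tamoxifen.

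Tfrc in the stem gate had 29.4 and 25.0 CPM with tamoxifen alone (replicates 1 and 2), 23.4 and 20.4 with both agents, and 48.6 and 34.5 in late rapamycin. Both late rapamycin mice were above the other 4. They also had the lowest summed level of the gate's own stem markers, 2619 and 3252 CPM against 3278 to 3652 in the other mice, and the part of this in Tfrc was not tested. The Tfrc levels rest on 24 to 117 UMIs per mouse. Tamoxifen with rapamycin minus late rapamycin was -0.87 ± 0.21 log2 units (SE, edgeR adjusted p = 0.0412), lower on both days (-1.02 on day 1 and -0.73 on day 2). Late rapamycin minus tamoxifen was 0.57 ± 0.20 (adjusted p = 0.213), and tamoxifen with rapamycin minus tamoxifen was -0.30 ± 0.22 (adjusted p = 0.9997). The call depended on the processing: the adjusted p was 0.124 without the day block, 0.114 with a looser hashtag call, 0.0659 with stricter cell filters, 0.148 with doublets kept and 0.391 with stricter gates. Without tamoxifen with rapamycin replicate 1 it was 0.208, without its replicate 2 0.0874, without late rapamycin replicate 1 0.102 and without its replicate 2 0.0238. DESeq2 gave -0.90 ± 0.43 with an unadjusted p of 0.0356 and no adjusted p.

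The summed level of erythroid markers in the stem gate was 737 and 778 CPM with tamoxifen alone, 722 and 789 with both agents, and 344 and 609 in late rapamycin. In stem gate cells with at most 1 erythroid marker, Tfrc was at 27.3 and 23.8 CPM with tamoxifen alone, 21.95 and 21.2 with both agents, and 44.5 and 32.8 in late rapamycin. The part of erythroid cells in the Tfrc difference was not tested. Late rapamycin replicate 1 had 654 CPM of late erythroid markers against 35.6 to 50.7 in the others, of which 856 of 892 UMIs came from 1 cell.

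Tfr2 in the stem gate had 44.5 and 49.3 CPM with tamoxifen alone, 33.2 and 27.6 with both agents, and 43.4 and 54.25 in late rapamycin. Both tamoxifen with rapamycin mice were the lowest of the 6. Its differences were -0.76 ± 0.20 log2 units (SE, adjusted p = 0.0561) from late rapamycin and -0.69 ± 0.20 (adjusted p = 0.378) from tamoxifen, and neither passed. The remaining 6 genes had log2 differences between -0.14 and 0.38 over the 3 stem gate comparisons. Fth1 was among the steadiest, with 991 to 1064 CPM over the 6 mice.

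In the erythroid gate 9 genes were tested and none was called, while 0.566% of 10597 genes were called in tamoxifen with rapamycin minus tamoxifen, 1.53% in late rapamycin minus tamoxifen and 0.519% in tamoxifen with rapamycin minus late rapamycin. Tfr2 came nearest. It had 91.3 and 85.1 CPM with tamoxifen alone, 110 and 122 with both agents, and 99.8 and 87.4 in late rapamycin, so the direction was opposite to that in the stem gate. Tamoxifen with rapamycin minus tamoxifen was 0.41 ± 0.09 (SE, adjusted p = 0.0818). Late erythroid markers in this gate summed to 1662 and 1210 CPM with tamoxifen alone and 2189 and 2709 with both agents. In late rapamycin they summed to 991.7 and 1503, overlapping with tamoxifen alone. These sums were not tested between treatments, and their part in the levels was not tested. Tfrc had 287 and 280 CPM with tamoxifen alone, 296 and 305 with both agents, and 348 and 298 in late rapamycin (late rapamycin minus tamoxifen 0.18 ± 0.07, adjusted p = 0.236). Slc11a2 lay between 56.5 and 59.6 CPM in all 6 mice. Standard errors in this gate were 0.03 to 0.13 for the 9 genes. Of the other iron genes, Blvrb was called in late rapamycin minus tamoxifen (-0.18 ± 0.04, adjusted p = 0.0494), the only call among the 33 tested there.

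In the myeloid gates no member was called, and few genes were called at all. In the primary granule gate 0% of all genes were called in tamoxifen with rapamycin minus tamoxifen and 0.0096% in each of the other comparisons. In the secondary granule gate the share was 0% in all 3. In the monocyte gate it was 0.0226% in tamoxifen with rapamycin minus tamoxifen and 0.0113% in each of the others. Counts of members with an unadjusted p under 0.05 were 2 over the 3 primary granule comparisons, 3 over the secondary granule and 3 over the monocyte comparisons. No share of all genes at that limit is set beside these counts either. Tfr2 in the primary granule gate had 8.69 and 18.3 CPM with tamoxifen alone, 1.53 and 4.396 with both agents, and 6.97 and 17.03 in late rapamycin. Its differences of -2.20 ± 0.37 from tamoxifen and -1.999 ± 0.35 from late rapamycin (SE, adjusted p = 0.356 and 0.252) rest on 4 and 13 UMIs in the tamoxifen with rapamycin mice.

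In some myeloid gates 1 mouse, late rapamycin replicate 1, stood apart from the others for Fth1, Ftl1 or Hmox1. Fth1 in the monocyte gate was 1890 CPM in that mouse and 989 to 1184 in the other 5. In the primary granule gate it was 1224 CPM against 774 to 824. Ftl1 in the primary granule gate was 1352 CPM against 850 to 930. Hmox1 in the secondary granule gate was 44.2 CPM in that mouse and 10.5 to 20.1 in the others. Secondary granule markers in the monocyte gate summed to 3285 CPM in that mouse and 409.5 to 627.8 in the others. In the primary granule gate they summed to 4504 CPM in that mouse, 4088 in tamoxifen replicate 2 and 1109 to 1452 in the other 4. Fth1 in the primary granule gate of tamoxifen replicate 2 was 824 CPM. The sums of late rapamycin replicate 1 in the myeloid gates were also the deepest. They held 9463654 UMIs against 2135811 to 2954858 in the primary granule gate and 4420518 against 1091407 to 2024178 in the secondary granule gate. In the monocyte gate the sum was 1349887 UMIs against 720781 to 986634. The part of these in the levels was not tested. Slc40a1 in the secondary granule gate was even, at 137 to 145 CPM in all 6 mice.

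**Figure D5:**
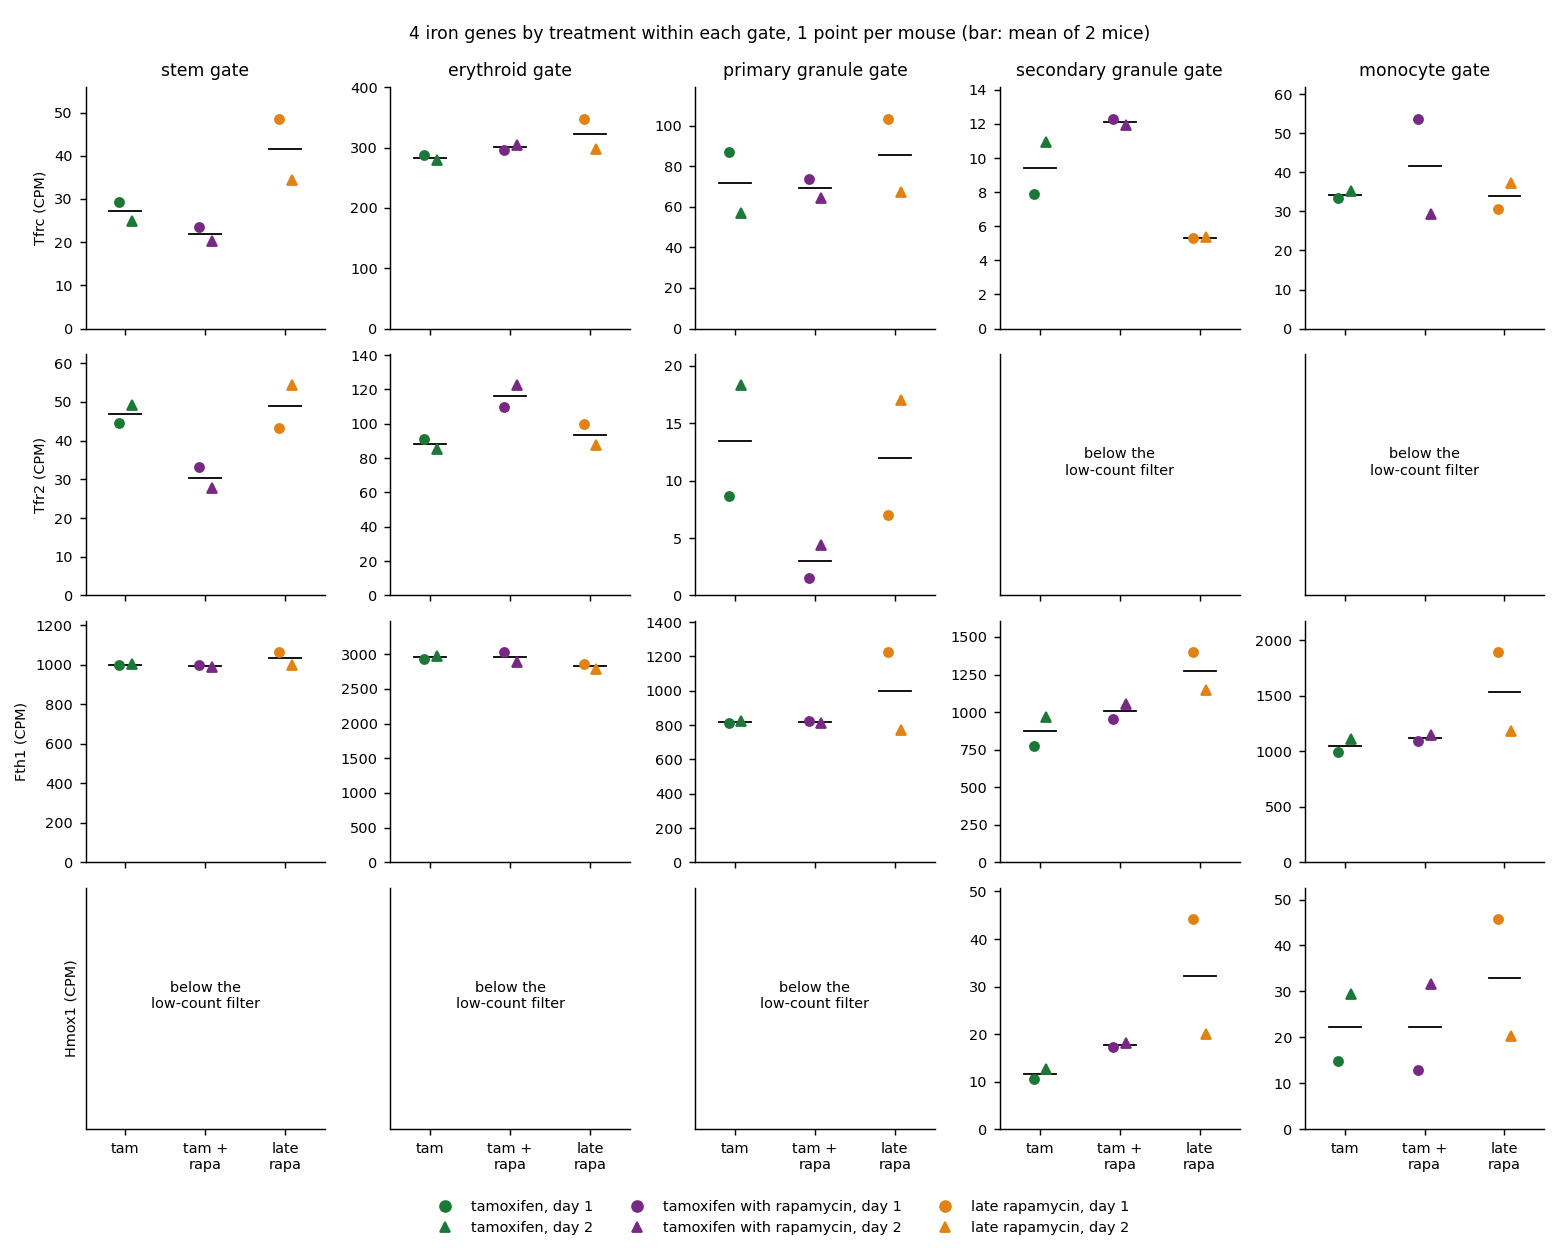
Levels of Tfrc, Tfr2, Fth1 and Hmox1 in CPM (vertical axes, from 0) by treatment (horizontal axis; tam is tamoxifen, rapa is rapamycin) in the 5 gates, 1 point per mouse with a bar at the mean of 2 mice. Late rapamycin replicate 1 stands above the other 5 mice for Fth1 in the primary granule and monocyte gates and for Hmox1 in the secondary granule gate.

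Whether a treatment difference depended on the gate was tested by 12 interaction terms against the stem gate. None of the 120 member tests passed with edgeR's quasi-likelihood test (15 had an unadjusted p under 0.05), and none passed with DESeq2. The 15 have no share of all genes at that limit beside them and are not read as an excess. Over all 11627 genes the terms called 0%, 0.0086%, 0.0172% or 0.0258%. The smallest p was that of Tfrc, for tamoxifen with rapamycin minus late rapamycin in the secondary granule minus the stem gate (2.03 ± 0.45 log2 units, SE, adjusted p = 0.108). In the secondary granule gate Tfrc had 12.3 and 11.9 CPM with both agents and 5.29 and 5.39 in late rapamycin, from 9 to 20 UMIs per mouse. The opposite directions of Tfr2 in the stem and erythroid gates gave an interaction of 1.08 ± 0.38 (adjusted p = 1) for tamoxifen with rapamycin minus tamoxifen, so a difference between these gates was not shown.

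As a description, genes whose log2 CPM over the 30 gate-by-mouse sums was most like each iron gene were named by Pearson's r among all genes tested. Sums of 1 gate resemble each other, so these values mainly reflect the 5 gates. Tfrc was most like Hdgf (r = 0.981), Ppm1g and Glrx5. Tfr2 was most like Sox6 (0.938), C530008M17Rik and Rab4a, and Slc11a2 like Alad (0.954), Minpp1 and Rabggtb. Slc25a37 was most like Zmpste24 (0.927), Tmem216 and Hacd2. Fth1 was most like Golm1 (0.949), Ctbp1 and Eif4ebp1, and Ftl1 like Emilin2 (0.953), Rbm42 and Vps26a. Slc40a1 was most like Cd24a (0.960), Rp9 and Usp46, and Hmox1 like S100a6 (0.962) and Lyn. Ireb2 was most like Sidt2 (0.929), Gm9949 and Cd44, and Aco1 like 2610507B11Rik (0.954), Sod1 and Ptcd2.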

How the data were processed

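Single cells of 2 pools (1 per day, 3 mice each, told apart by hashtag antibodies) were measured by droplet RNA sequencing. The deposited matrices hold UMI counts per gene and cell, and the deposited hashtag matrices counts per antibody. Per the submitters' processing notes, Cell Ranger 7.0.0 and the genome mm10 were used, whereas the file headers name Cell Ranger 8.0.1. Whether intronic reads were counted is not given in the sources used here. The pools held 113535036 and 115505329 gene UMIs. Of their barcodes, 21814 and 18944 had 1 hashtag above the 0.999 quantile of the background, and 126 barcodes occur in both runs. Cells needed 500 genes, 1000 UMIs and at most 10% mitochondrial UMIs. Barcodes with several hashtags and the 1537 and 1153 cells with the highest doublet scores were left out, which left 17745 and 16663 cells.

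The members and lists were chosen with earlier results of these data known. Gate minimums were set after the marker distributions, not the iron genes, had been seen. UMI counts were summed per mouse and gate and tested in edgeR 4.0.16 (R 4.3.3) by the quasi-likelihood test after TMM scaling and filterByExpr, with the mouse as a block between gates and the day between treatments. P-values were adjusted over all genes tested. Per the labels, a replicate number marks a shared day, so same-numbered mice pair. Correlations of their deviations were 0.01 to 0.16. Named were all 10 members, up to 4 other iron genes per gate comparison with the smallest adjusted p, and the 3 genes most like each member, of which 1 is not reported here. Scripts were tested on simulated data. Alternatives were other scalings, no low-count filter, DESeq2 1.42.0, no block, each mouse left out, and other hashtag, cell, doublet and gate limits.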

Additional observations from a re-analysis of the deposited data

Results flagged for a closer look

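In 8 of 50 sets of 6 mice (10 genes in 5 gates), the highest mouse stood apart from the others by a gap above Dixon's critical share of the whole range. Chance flags about 1 in 20 such sets, and the sets share mice. The share of all genes flagged by this rule was not computed, so the 8 are not read as an excess among iron genes. In 7 of the 8 the mouse was late rapamycin replicate 1. In the erythroid gate its Tfrc was 323.8 CPM, where the next mouse had 284.8, and its Slc25a37 was 46.96 CPM, where the next had 35.81. Its Fth1 was 780.5 CPM in the stem gate (next 745), 1139 in the primary granule gate (next 763.3) and 1747 in the monocyte gate (next 1079). Its Ftl1 in the primary granule gate was 1258 CPM (next 863.7). Its Hmox1 in the secondary granule gate was 80.39 CPM (next 35.24). The eighth was Tfrc in the monocyte gate of tamoxifen with rapamycin replicate 1, at 47.18 CPM (next 34.11).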

How the results depend on the processing

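Between gates, the number of members called stayed within 1.5 times of the main number under every alternative run, and 40 of 40 single calls were the same without the replicate block. Single members that changed sign were Ireb2 (erythroid, 0.0574 with no low-count filter; monocyte, -0.0634 and secondary granule, -0.511 with plain totals), Slc25a37 (monocyte, 0.0493 with stricter gates), Fth1 (primary granule, -0.0327 with RLE size factors, -0.223 with plain totals, -0.0313 with DESeq2) and Aco1 (primary granule, -0.0873 with plain totals). Plain totals differ by construction in the composition factor. For the rest the cause was not tested.

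Between treatments, no low-count filter called 1 member in tamoxifen with rapamycin minus late rapamycin (erythroid, monocyte and primary granule gates), in tamoxifen with rapamycin minus tamoxifen (erythroid and primary granule), in late rapamycin minus tamoxifen (monocyte and secondary granule) and over the interactions, and 2 in the stem gate for tamoxifen with rapamycin minus late rapamycin. The stricter cell filter called 1 interaction. These counts stand without the share of all genes called and are not read as a result about the members. In the stem gate the single call, Tfrc, fell to 0 calls with no replicate block (the pairing by day), the 0.99 hashtag quantile, the stricter cell filter and stricter gates. With doublets kept Tfrc was lost as well (adjusted p = 0.148) and Tfr2 was called (adjusted p = 0.0352), so the number stayed 1. For Tfrc DESeq2 gave no adjusted p, so that count was not compared. With the pairing left out, calls over all genes there went from 175 to 24.

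Leaving out 1 mouse at a time, members called ranged from 0 to 2 in late rapamycin minus tamoxifen and in tamoxifen with rapamycin minus late rapamycin (erythroid), 0 to 1 in tamoxifen with rapamycin minus tamoxifen (erythroid and primary granule), 0 to 3 in both late rapamycin comparisons (monocyte), 0 to 3 and 0 to 5 (primary granule), 0 to 3 and 0 to 4 (secondary granule), 0 to 2 in tamoxifen with rapamycin minus late rapamycin (stem) and 0 to 14 over the interactions. The highest values came without late rapamycin replicate 2 except in the stem gate, where they came without either tamoxifen mouse. The group then holds 1 mouse, late rapamycin replicate 1, assumed to vary like the other groups. Calls over all genes in late rapamycin minus tamoxifen of the primary granule gate then went from 1 to 3098. The ranges of members called with a mouse left out stand without the share of all genes called. They are not read as a result about the members. Few UMIs limit Tfr2, Slc11a2, Slc40a1 and Hmox1 where fewer than 40 were counted over all mice.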

Other observations

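B lineage cells, which are in none of the 5 gates, held Tfrc, with 1089 UMIs in 3560 cells. A Tfrc UMI was seen in 22.5% of them, and in 11.8% after thinning to 1000 UMIs, against 2.69% of stem gate, 7.99% of primary granule and 25.3% of erythroid cells thinned alike. Their ratio of Fth1 to Ftl1 UMIs was 2.01 ± 0.126 (SD, n = 6 mice).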
